A study of Mus musculus with 28 samples.

Results

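The comparison described here set tumors grown from KEAP1-KO 3LL cells against the same KEAP1-KO cells kept in culture. It used 12 of the 28 RNA-seq libraries of the series, chosen by their labels, with 4 libraries of cultured KEAP1-KO cells and 8 of KEAP1-KO tumors. The tumors came from 2 experiments with 4 libraries each. 3LL is a mouse line derived from Lewis lung carcinoma, and KEAP1-KO lines, grown after editing from cells plated singly, carried a frameshift insertion of 1 base in exon 2 of both Keap1 alleles. Whether the libraries came from 1 such line is not given in the sources used here. Cells were grown in RPMI medium with fetal bovine serum. Tumors grew under the skin of albino C57BL/6 male mice that were 6 weeks old at injection, and were taken after 10 days. In Experiment A each mouse carried a WT tumor on the left flank and a KEAP1-KO tumor on the right, and in Experiment B a KEAP1-KO tumor on the left and a DKO tumor on the right, where DKO cells lack Keap1 and Nrf2. Flank and neighbouring tumor therefore changed together with the experiment. The hosts' own cells had an intact Keap1 gene, and a tumor library held RNA of both cancer and host cells. The labels' extraction text names liver, whereas titles and the study's methods name tumors and cultured cells, and the latter were used. The remaining 16 libraries (4 each of WT cells, WT tumors, DKO cells and DKO tumors) served to test where the KEAP1-KO difference departed from that of the other genotypes.

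KEAP1 is the substrate adaptor that marks the transcription factor NRF2 for degradation, and loss of KEAP1 leaves NRF2 stable, so that genes for glutathione synthesis, quinone reduction and NADPH supply are transcribed without an oxidative signal. A solid tumor is supplied by host vessels and contains host macrophages, other leukocytes and fibroblasts, none of which is present in a pure culture. Medium and tissue also differ in oxygen, lipids, amino acids and the room to divide, and cells answer through pathways such as HIF (hypoxia), SREBP (sterol synthesis) and ATF4 (amino acid supply).

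The deposited values were log2(normalized count + 4), so a row without reads stands at 2.0 and a difference of 1 is 2-fold for well-read rows and less than that for rows near the floor. Of 43143 rows, 18509 carried a gene symbol, of which 8420 stood for a gene and 10089 for 1 transcript (4187 of them retained introns), and levels are therefore not compared between genes. Reads recovered from the values and summed over the deposited rows were 6466460 to 7524278 in the cell libraries and 4375286 to 5299336 in the tumor libraries. Normalized counts summed over all rows were 6006308 to 6736595 in cells and 4850497 to 5187946 in tumors. Summed counts of lists therefore depend on the scaling too, and are given as deposited. After the filter on low counts, 14585 rows with a symbol were tested and 3924 were not. The median difference over the tested rows was 0.08, and it moved from −0.21 (median centring) to 0.36 (scaling to totals without the 20 highest rows), so small differences depend on the scaling. The mouse each tumor came from was not given for the replicate numbers, and nothing in the labels says that the cell libraries were separate cultures, so the p-values measure the spread between these libraries.

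Keap1 transcript, the edited gene, stood at 7.65, 7.54, 7.65 and 7.52 in the 4 cell libraries on the log2 scale, at 7.55, 7.13, 7.86 and 7.27 in the tumors of Experiment A and at 7.51, 7.5, 7.3 and 7.52 in those of Experiment B. These ranges overlapped, and the difference of −0.14 (SE 0.12) was not called (limma, adjusted p = 0.372). Median centring gave a called difference of −0.42, and scaling to totals without the 20 highest rows gave 0.23, not called. WT cells stood at 9.45 ± 0.09 (mean ± SD, n = 4) and WT tumors at 8.88 ± 0.09. A frameshift need not remove the transcript, so this is a check of the level and not of the protein. For Nfe2l2, the gene of NRF2, the table holds a processed-transcript row, which stood at 4.66, 4.64, 5.17 and 4.86 in cells and 5.41 to 6.03 (median 5.69) in the 8 tumors, a rise of 0.88 (SE 0.14, limma, adjusted p = 1.6e-04). The cultured cells were checked against epithelial and lung genes: Krt8, an epithelial keratin, ranged from 11.65 to 11.77 in the cells, while Cdh1 (E-cadherin) and Napsa (an alveolar protease) were at or near the floor, with highest values of 2.76 and 2.3.

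Most tested rows differed between tumors and culture. At an adjusted p under 0.05 (limma, Benjamini-Hochberg over all rows tested), 4544 of 14585 rows with a symbol (31.2%) were higher in tumors and 4228 (29.0%) were lower. Counts of called genes in the lists below are to be read beside these shares. With at least a 2-fold difference as well, 2240 (15.4%) were higher and 1964 (13.5%) lower. In 3274 rows (22.4%) all 8 tumors lay above all 4 cell libraries, and in 3544 rows (24.3%) all lay below. Taken apart, Experiment A gave 4080 higher (28%) and 4051 lower (27.8%), and Experiment B gave 4112 higher (28.2%) and 3878 lower (26.6%). Both experiments share the 4 cell libraries. A difference above 4 was seen in 116 called rows, and one below −2 in 120. The balance of the calls depended on the scaling: of all calls, 51.8% were higher as deposited, 37.4% after median centring and 66.2% after scaling to totals without the 20 highest rows. Rows with a mean of at least 25 normalized counts were more often lower, with 2809 higher and 3595 lower calls.

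**Figure D1:**
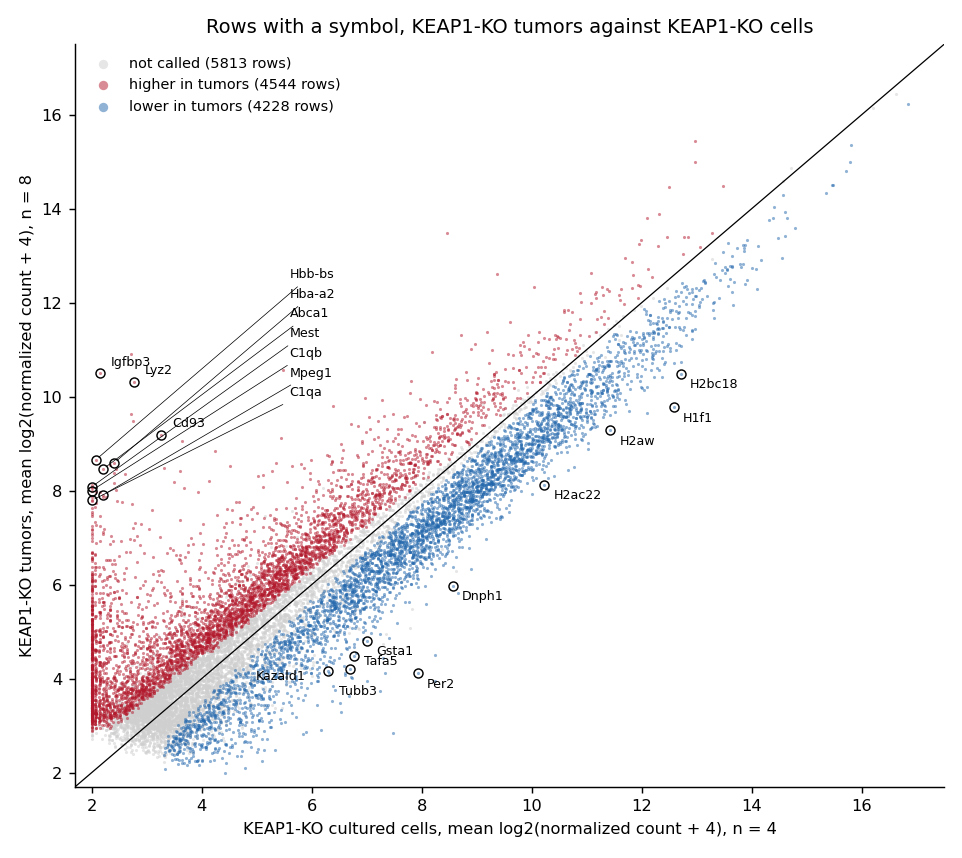
Mean log2 value of the 4 cell libraries (x axis) against the mean of the 8 tumor libraries (y axis) for rows with a symbol that were tested, with 4544 higher calls in red, 4228 lower calls in blue, rows not called in grey, the line of equality, and circles on the 20 genes named in the text. The circled genes run from −3.82 (Per2) to 8.35 (Igfbp3), and many higher calls lie at the left edge, where cells are at or near the floor of 2.0.

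Among rows that stood for a whole protein-coding gene, the 10 with the highest differences and no overlap were Igfbp3, Lyz2, Hbb-bs, Abca1, Hba-a2, Mest, C1qb, Cd93, C1qa and Mpeg1. Igfbp3, which encodes a secreted carrier of insulin-like growth factors, was at 2.0, 2.0, 2.31 and 2.29 in the cells, at 10.76, 10.34, 10.11 and 10.69 in the tumors of Experiment A and at 10.03, 10.23, 11.1 and 10.76 in those of Experiment B. The cells were at or next to the floor, and no tumor came near them. Its difference was 8.35 (SE 0.19) on the log2 scale (limma, adjusted p = 1.2e-11), with 8.33 in Experiment A and 8.38 in Experiment B.

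Mest, an imprinted gene of the hydrolase family that is active in embryonic mesoderm, was at the floor in all 4 cell libraries, at 7.4, 7.63, 8.08 and 7.41 in Experiment A and at 8.21, 8.51, 8.69 and 8.72 in Experiment B. Against a floor of 3 reads per library it was at least 104-fold higher in the mean of the 8 tumors. Abca1, the exporter that hands cellular cholesterol to lipoproteins, was at 2.0, 2.28, 2.56 and 2.0 in cells and 8.02 to 8.81 (median 8.41) in tumors, a difference of 6.25 (SE 0.14). Cd93, a surface protein of endothelium and myeloid cells, was at 3.73, 3.21, 2.77 and 3.36 in cells and 8.64 to 9.65 (median 9.28) in tumors.

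C1qa and C1qb encode chains of complement C1q, made chiefly by macrophages, and were listed at zero in the cells, with tumors at least 82.6-fold and 97.5-fold higher. Lyz2, the lysozyme of myeloid cells, and Mpeg1, the pore-forming protein of macrophages, differed by 7.56 (SE 0.13) and 5.7 (SE 0.17). Hbb-bs and Hba-a2 are adult globin genes and differed by 6.59 (SE 0.26) and 6.18 (SE 0.29). Of these 10 genes 6 thus belong to macrophages or red blood cells by their textbook use.

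Among the same kind of rows, the 10 lowest were Per2, H1f1, Dnph1, Tubb3, Tafa5, H2bc18, Gsta1, H2aw, Kazald1 and H2ac22. Per2, a repressor of the circadian clock, was at 7.84, 7.85, 8.04 and 7.99 in the cells, at 4.37, 4.56, 3.55 and 5.05 in Experiment A and at 3.8, 2.95, 4.19 and 4.39 in Experiment B. Every tumor lay below every cell library, and the difference was −3.82 (SE 0.29, limma, adjusted p = 2.2e-07). H1f1, H2bc18, H2aw and H2ac22 are histone genes, and they fell by 2.81, 2.22, 2.15 and 2.11. H1f1, a linker histone, was at 12.48, 12.66, 12.46 and 12.73 in cells and 9.27 to 10.43 (median 9.61) in tumors.

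Dnph1, a nucleotide hydrolase that removes a modified DNA precursor, fell by 2.6. Its lowest cell library was at 8.43 and its highest tumor, in Experiment A, at 6.75. Tubb3, a beta-tubulin best known from neurons, was at 6.57, 6.83, 6.52 and 6.89 in cells and 3.15 to 4.91 (median 4.28) in tumors. Tafa5, a secreted chemokine-like protein, and Kazald1, a secreted protein with a Kazal domain, fell by 2.27 and 2.13. Gsta1, a glutathione S-transferase, is taken up with the NRF2 targets.

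**Figure D2:**
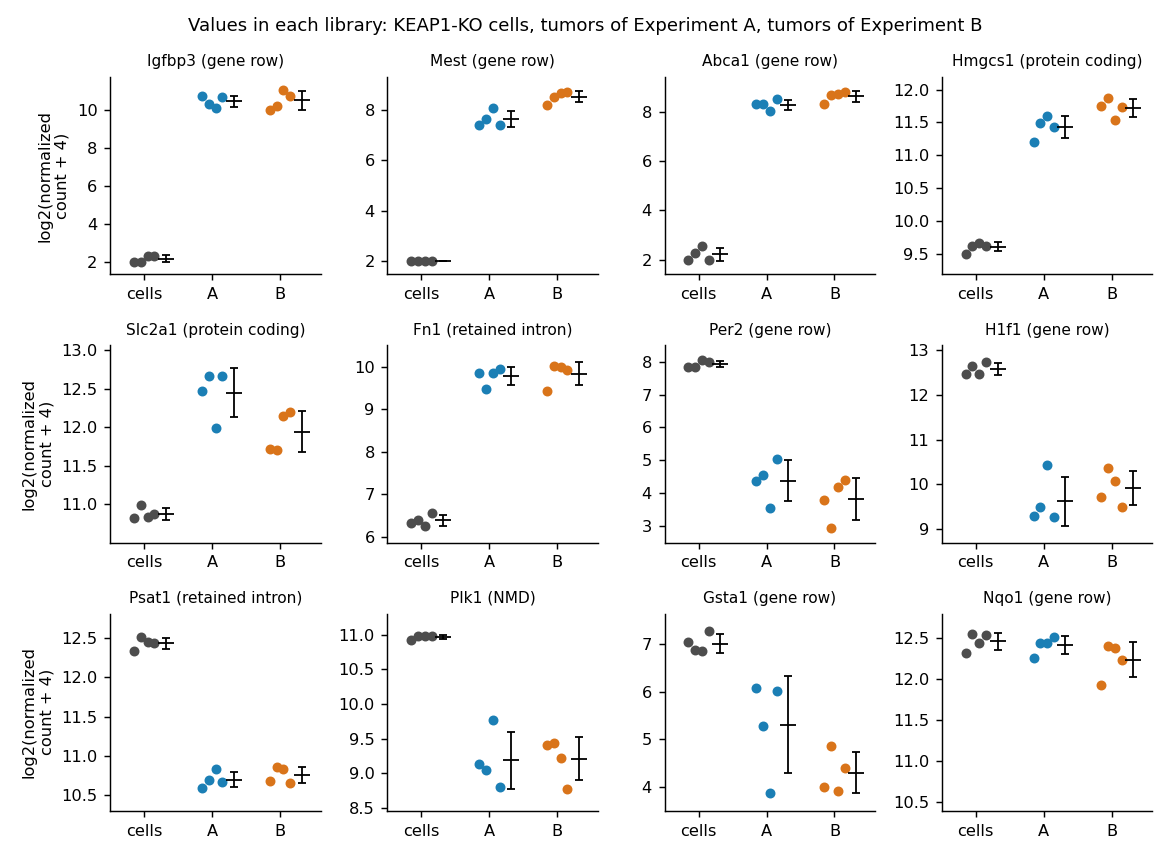
Log2 value of 12 genes in each library, with 1 point per library and the mean ± SD of each group of 4 (cells, tumors of Experiment A, tumors of Experiment B). Igfbp3, Mest and Abca1 leave the floor of 2.0 in every tumor, Per2, H1f1, Psat1, Plk1 and Gsta1 are lower in every tumor than in any cell library, and the tumors' Nqo1 values overlap the cells'.

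Genes of host leukocytes were higher in the tumors, and cells in culture had few or no reads of them. All 12 tested leukocyte genes were called higher, against 31.2% of all rows, with a median difference of 3.97 (3.55 in Experiment A and 4.27 in Experiment B) against 0.08 over all rows, or 4.29 with the rows that were zero in every cell library set at their lower bound. With a pseudocount of 0.4 in place of 4 the median was 6.23. Their summed normalized counts were 41.2 to 59.4 in cells, 995.6 to 1172.9 in Experiment A and 1605.9 to 2029.8 in Experiment B. Of the 12 leukocyte rows, 10 were under 5 normalized counts in every cell library. Such rows can pass the filter only through the tumors. A higher call was thus close to fixed in advance, and 31.2% over all rows is no fair comparison for them. The same holds for 18 of 22 listed macrophage and monocyte rows, 13 of 20 endothelial rows and all 5 mast cell rows. It also holds for all 6 red blood cell and all 5 adipocyte rows, 9 of 12 fibroblast rows and 6 of 10 pericyte and smooth muscle rows. Of the listed neutrophil rows it holds for 5 of 8, of the class II rows for 5 of 7 and of the cytokine rows for 10 of 22. Higher calls of such rows in these lists, given below, are to be read with this limit. In a bulk sample, more cells of a type and more RNA per cell cannot be told apart. Ptprc, the pan-leukocyte phosphatase CD45, was at 2.3, 2.0, 2.56 and 2.53 in cells, 6.69, 6.71, 6.27 and 6.87 in Experiment A and 7.22, 7.69, 7.29 and 7.58 in Experiment B (a retained-intron row). The 2 experiments did not overlap in these values, and the difference between them was not tested.

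Macrophage and monocyte genes rose together. All 20 tested were higher, with a median of 4.59 (5.15 with bounds, 7.72 with a pseudocount of 0.4), and their sum went from 210.8 to 245.3 in cells to 4216.0 to 5263.0 in Experiment A and 6972.7 to 8158.6 in Experiment B. Mrc1, the mannose receptor of tissue macrophages, was at 2.76, 2.91, 2.31 and 2.92 in cells, 10.4, 10.73, 10.5 and 10.73 in Experiment A and 11.11, 11.35, 11.21 and 11.26 in Experiment B. Its difference was 8.19 (SE 0.11, limma, adjusted p = 5.1e-13). Csf1r, the receptor for the macrophage growth factor, was at 2.3, 2.0, 2.0 and 2.0 in cells and 7.21 to 8.73 (median 8.01) in tumors. Adgre1, the F4/80 antigen, was zero in all cells and at least 37.8-fold higher in tumors. The smallest rises of the list were Arg1, the arginase of alternatively activated macrophages, with 0.84 (SE 0.24), and Trem2, a lipid-sensing receptor, with 0.89 (SE 0.22). Both overlapped the cells, and Arg1 lost its call under median centring (0.55) and quantile normalization (0.52).

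Of the 7 tested neutrophil genes 6 were higher (median 3.2). S100a8, a calcium-binding alarmin of neutrophils, was at 2.0, 2.52, 2.31 and 2.53 in cells, 7.41, 7.57, 5.38 and 7.38 in Experiment A and 4.64, 5.93, 7.23 and 6.74 in Experiment B, and Mmp9, a gelatinase stored in their granules, was at 3.11, 3.57, 3.12 and 3.48 in cells, 7.4, 7.04, 9.53 and 7.4 in Experiment A and 7.89, 9.24, 9.22 and 10.1 in Experiment B. The tumors spread over more than 2 units in both genes. Cxcr2, the chemokine receptor of neutrophils, did not pass the test (−0.37, SE 0.15, limma, adjusted p = 0.0571) and was called lower without tumor replicate 1 of Experiment A (−0.44) or 2 of Experiment B (−0.41). Mast cell genes were close to absent from culture (sums of 0.0 to 0.9) and all 5 were higher in tumors. Mcpt4, a mast cell chymase, was zero in all cells and at least 8.44-fold higher.

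T and NK cell genes remained near the floor in the tumors. Of 17 listed rows 3 passed the filter and none of these was called, with a median of 0.41 (Il2rb 0.63, Cd8a 0.41, Cd28 0.01), although scaling to totals made a call of Cd8a (0.69). In all, 10 rows were zero in all cell libraries. The T cell receptor partner Cd3e was at 2.35, 2.0, 2.0 and 2.0 in Experiment A and 2.0, 2.0, 2.33 and 2.0 in Experiment B, Cd3d reached 2.59 at most and Ncr1, an NK cell receptor, 2.33. The sum over the 17 rows was 17.9 to 19.7 in cells and 31.1 to 49.7 in the KEAP1-KO tumors, while WT tumors held 142.6 to 244.3 and DKO tumors 90.4 to 191.0. A low read count in a row of a single transcript does not show that T cells were absent. Of 3 tested B cell genes, Ms4a1 (CD20) and the adaptor Blnk were higher and Pax5 lower, the last with −0.22 (SE 0.09) and the opposite sign after scaling to totals (0.14). The call of Pax5 was lost without any of cell replicates 1, 3 and 4 or of 6 of the tumors (−0.15 without cell replicate 1), and that of Blnk without cell replicate 1 or 2 (0.6 and 0.67). Of 4 dendritic cell genes, Flt3, Xcr1 and Itgax were higher, with Xcr1 not called without cell replicate 2 or 4 (0.82 and 0.77).

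**Figure D3:**
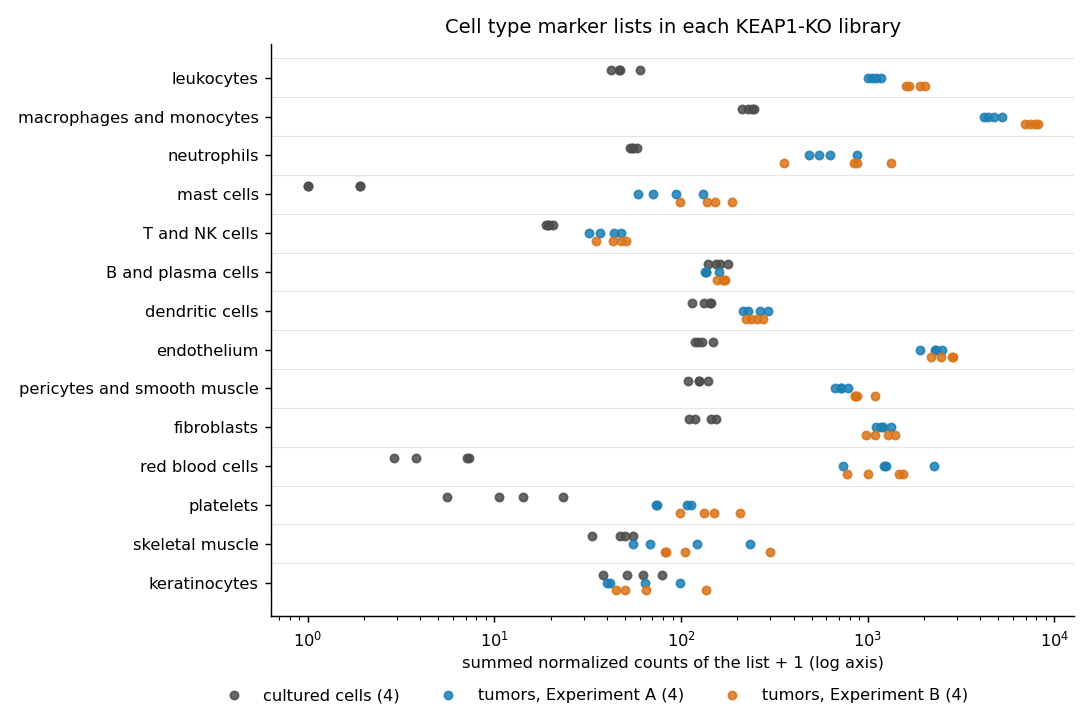
Summed normalized counts (plus 1, log axis) of 14 cell type marker lists in each of the 12 libraries, with 1 point per library and colors for cultured cells and the tumors of both experiments. Leukocyte, macrophage, endothelial and red blood cell sums of all 8 tumors lie above every cell library, T and NK cell sums reach 49.7 at most, and B and plasma cell sums of tumors and cells overlap.

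Vessel genes rose together. All 19 tested endothelial genes were higher, with a median of 3.37 (3.77 with bounds), and their sum went from 117.0 to 147.1 in cells to 1913.7 to 2491.0 in Experiment A and 2178.6 to 2874.0 in Experiment B. Cdh5, the cadherin of endothelial junctions, was at 4.31, 4.24, 4.63 and 3.79 in cells, 8.93, 8.35, 8.87 and 8.78 in Experiment A and 8.55, 8.98, 9.17 and 9.08 in Experiment B, a difference of 4.6 (SE 0.16). Ptprb, the endothelial phosphatase VE-PTP, and Plvap, which forms the diaphragms of fenestrae, differed by 5.67 (SE 0.12) and 5.3 (SE 0.13). The smallest was Egfl7, a secreted angiogenic factor (0.88, SE 0.32, limma, adjusted p = 0.0382), which lost its call without cell replicate 1, 2 or 3 or tumor replicate 1 of Experiment A (0.77 to 0.88).

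Of 10 pericyte and smooth muscle genes 9 were higher (median 2.24). Rgs5, a pericyte regulator of G-protein signaling, was zero in all cells and at least 54.4-fold higher in tumors, where it was at 6.5 to 7.89 (median 7.18). Of 9 fibroblast genes 7 were higher and 1 lower. Dcn, the small proteoglycan decorin, rose by 6.91 from 3.11, 2.91, 2.31 and 2.53 in cells to 9.16 to 9.99 (median 9.73) in tumors, and Lum, lumican, was at least 7.08-fold higher. The lower one was Dpt, dermatopontin, which fell by 1.12. Red blood cell genes were higher in 5 of 6 cases, and their sum spread from 733.3 to 2253.7 among the tumors of Experiment A alone.

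Matrix genes were higher in 24 of 25 cases, with a median of 1.89, and this list includes genes that the cancer cells also use. Fn1, fibronectin, was at 6.32, 6.4, 6.26 and 6.56 in cells, 9.86, 9.48, 9.86 and 9.94 in Experiment A and 9.44, 10.02, 9.99 and 9.92 in Experiment B (difference 3.43, SE 0.12). Tnc, tenascin-C, was at 3.11, 4.02, 3.41 and 3.48 in cells, 7.47, 6.66, 9.28 and 7.12 in Experiment A and 8.06, 9.25, 9.01 and 8.63 in Experiment B. Col1a1, the main chain of type I collagen, was at 5.46, 6.12, 5.28 and 5.71 in cells, 6.85, 7.35, 10.29 and 7.61 in Experiment A and 8.64, 9.91, 8.78 and 8.83 in Experiment B. In Experiment A replicate 3 was the highest in both genes, and with it left out the list's median was 1.93. The exception was Timp1, an inhibitor of metalloproteinases, which fell by 1.29 from 8.71, 8.87, 8.78 and 8.87 in cells to 7.07 to 7.89 (median 7.53) in tumors.

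Few genes of muscle, skin, fat and platelets passed the filter. Of 5 skeletal muscle genes 3 were higher, against 31.2% of all rows. Their median was 0.65, and 1 tumor of Experiment B had a sum of 297.2 against 32.2 to 53.9 in cells. Of the 11 listed muscle rows, 7 were under 5 normalized counts in every cell library, and 31.2% is no fair comparison for any of these that were tested. Titin (Ttn) rose by 1.65, whereas Ckm and Myh4, which define mature fibers, were at the floor in most libraries and were not tested. Neither of 2 keratinocyte genes was called, 2 of 3 adipocyte genes were higher (Fabp4 by 1.73, Plin4 by 1.1), and 2 of 3 platelet genes were higher, with Pf4, platelet factor 4, at least 30.6-fold.

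Genes of cell division were lower in tumors. Of 29 tested genes of mitosis and DNA replication 22 were lower and none was higher, against 29.0% lower over all rows, and the median difference was −1.32 (−1.37 in Experiment A and −1.27 in Experiment B). The median stayed between −1.61 and −0.84 under the other scalings. Plk1, a mitotic kinase, was at 10.92, 10.98, 10.98 and 10.98 in cells, 9.14, 9.05, 9.77 and 8.8 in Experiment A and 9.41, 9.44, 9.22 and 8.77 in Experiment B. No tumor reached the cells, and the difference was −1.77 (SE 0.16, limma, adjusted p = 1.3e-06). Mcm5, a subunit of the replicative helicase, was at 11.55, 11.73, 11.74 and 11.78 in cells and 9.57 to 10.35 (median 9.92) in tumors, a difference of −1.77 (SE 0.13). Cdk1, the kinase that drives entry into mitosis, and Top2a, the topoisomerase of replicating chromosomes, fell by 1.41 and 1.53. Mki67, for which the row is a transcript with few reads, was at 2.0, 2.73, 4.18 and 2.74 in cells and 2.0 to 3.7 (median 2.83) in tumors and was not called (limma, adjusted p = 0.816). The host marker sums given above rose in the same tumors, and their part in the lower cancer cell genes was not tested.

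Genes that ATF4 controls, including the enzymes of serine synthesis, were lower in 14 of 16 cases with none higher against 29.0% lower and 31.2% higher over all rows (median −1.27, between −1.56 and −0.86 under the other scalings). Only 3 of the 16 stood as gene rows, of which 1 was lower, with a median of −0.32. Phgdh, the first enzyme of the serine pathway, was at 12.01, 12.17, 12.05 and 12.18 in cells, 9.48, 9.37, 10.15 and 9.55 in Experiment A and 9.75, 9.82, 9.59 and 9.56 in Experiment B. Its difference was −2.44 (SE 0.12, limma, adjusted p = 6.0e-09), and the next enzymes of the pathway, Psat1 and Psph, fell by 1.7 and 2.2. Asns, asparagine synthetase, was at 11.48, 11.66, 11.54 and 11.69 in cells and 9.81 to 10.12 (median 9.93) in tumors. Trib3, a pseudokinase induced by ATF4, fell by 1.82. Chac1, which degrades glutathione, and Sesn2, a leucine sensor, did not pass the test (−0.32 and −0.18), and both were called lower after median centring (−0.61 and −0.46). Sesn2 was also called without tumor replicate 4 of Experiment A (−0.23).

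Of 11 heat shock genes 8 were lower and 2 higher, against 29.0% lower and 31.2% higher over all rows. The lower ones include Hsp90aa1, the inducible cytosolic chaperone, which fell by 1.85 from 8.7, 8.72, 8.65 and 8.6 to 6.59 to 7.17 (median 6.84), the mitochondrial co-chaperonin Hspe1, which fell by 1.85, and Hsph1, a nucleotide exchange factor, which fell by 1.32. The higher ones were the stress-inducible pair Hspa1a and Hspa1b, with 1.85 (SE 0.25) and 1.67 (SE 0.27), from levels near the floor in cells. These near-identical copies can share reads, so each value is uncertain. The median was −1.04 over all 11 and 1.0 over the 4 that stood as gene rows.

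The clock list was lower in 8 of 12 cases and higher in 1, against 29.0% lower and 31.2% higher over all rows. Dbp, an output factor of the clock, fell by 3.2 from 7.3, 7.28, 7.46 and 7.28 in cells to 2.95 to 5.04 (median 4.35) in tumors, and Arntl, the activator BMAL1, rose by 2.05 from 4.66, 4.87, 4.63 and 4.45 to 6.41 to 6.97 (median 6.76). Per2 thus moved with Dbp and against Arntl in both experiments. The hour at which tumors or cells were taken was not given in the sources used here.

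Of 13 genes encoded by the mitochondrial genome 10 were lower (median −0.57), but 5 were lower and 3 higher after scaling to totals. mt-Nd1, a subunit of complex I, was at 14.62, 14.65, 14.64 and 14.62 in cells and 13.69 to 13.89 (median 13.8) in tumors, a difference of −0.83 (SE 0.04). mt-Co1 and mt-Cytb were not called (mt-Cytb was without tumor replicate 1 of Experiment A, 0.19), and mt-Co1 took the opposite sign after scaling to totals (0.3). Of 11 p53 targets 5 were lower and 1 higher, against 29.0% and 31.2% of all rows. Trp53inp1, a p53-induced regulator of autophagy, was zero in the cells and ranged from 2.0 in 1 tumor to 7.2, at least 29.1-fold higher in the mean of the tumors, and Ccng1, cyclin G1, fell by 0.97.

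Genes of sterol synthesis were among those that rose. Of 22 tested genes of cholesterol and fatty acid synthesis 14 were higher and none lower, against 31.2% higher and 29.0% lower over all rows. Their median was 1.2 (1.08 in Experiment A and 1.36 in Experiment B). The median lay between 0.92 and 1.55 under the other scalings, and the list's sum went from 4847.6 to 5114.9 in cells to 10270.8 to 14712.4 in Experiment A and 12755.2 to 15851.3 in Experiment B. Hmgcs1, which makes the precursor of mevalonate, was at 9.51, 9.63, 9.67 and 9.63 in cells, 11.2, 11.49, 11.6 and 11.43 in Experiment A and 11.75, 11.87, 11.54 and 11.73 in Experiment B. The groups did not overlap and the difference was 1.97 (SE 0.08, limma, adjusted p = 9.3e-10).

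Fdft1, squalene synthase, was at 2.55, 2.0, 2.0 and 2.0 in cells and 3.17 to 5.16 (median 4.7) in tumors, a difference of 2.35 (SE 0.34). The members not called include 5 of fatty acid synthesis or its control: Fasn (0.73), Scd1 (−0.18), Scd2 (−0.07), Acaca (−0.34) and Srebf1 (−0.13). Acly, which supplies their acetyl-CoA, was called higher (1.06, limma, adjusted p = 0.006).

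Of 24 tested hypoxia and glycolysis genes 15 were higher and 2 lower, against 31.2% higher and 29.0% lower over all rows. Their median was 0.7, between 0.41 and 1.02 under the other scalings. Slc2a1, the glucose transporter GLUT1, was at 10.82, 10.99, 10.83 and 10.87 in cells, 12.47, 12.66, 11.99 and 12.67 in Experiment A and 11.72, 11.71, 12.15 and 12.2 in Experiment B, a difference of 1.32 (SE 0.13). Mxi1, an antagonist of MYC that HIF induces, and Ndrg1, a stress-responsive gene, rose by 3.22 and 2.09. Vegfa, the vessel growth factor, differed by 0.49 (SE 0.14, limma, adjusted p = 0.0111), and lost its call after median centring (0.2). Eno1, enolase, and Higd1a, a mitochondrial hypoxia gene, fell by 1.1 and 1.02. As deposited, the summed counts of the list were lower in tumors (20671.2 to 27102.7) than in cells (29163.1 to 32059.5). The sum over all rows was also lower in tumors, so this direction depends on the scaling and is not set against the median.

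**Figure D4:**
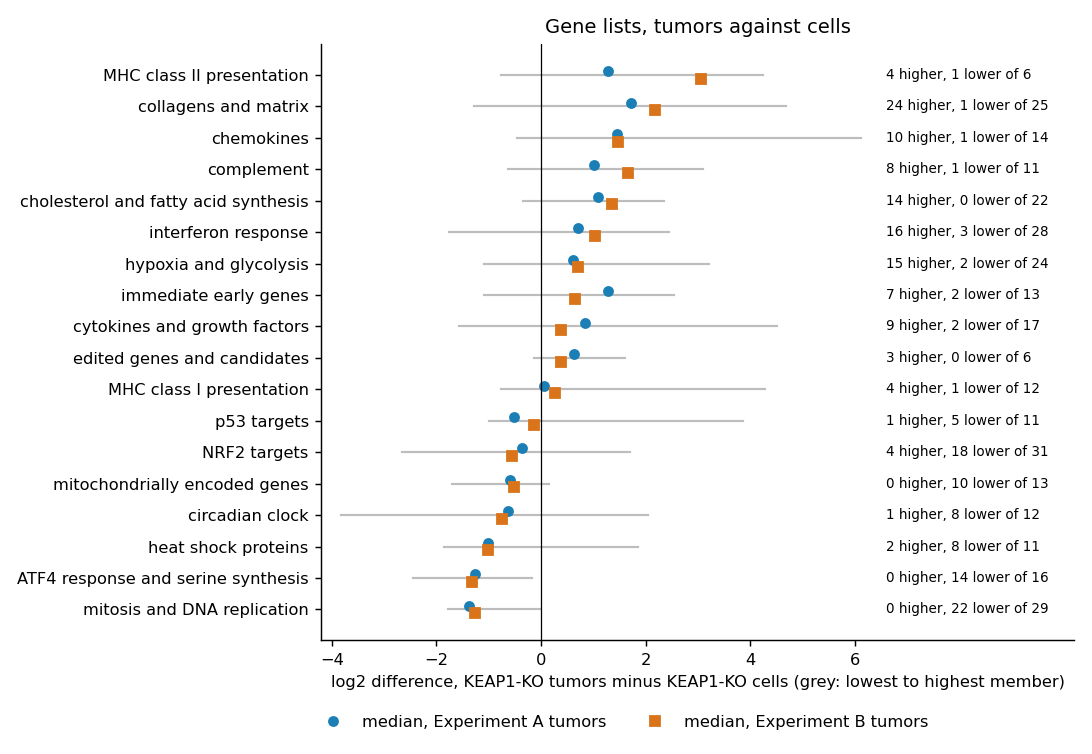
Median log2 difference (tumors minus cells) of 18 gene lists in Experiment A (circles) and Experiment B (squares), with grey lines from the lowest to the highest pooled difference of a member and the counts of calls at the right. Class II, matrix, chemokine, complement and sterol lists lie above 1 in both experiments, and mitosis, ATF4 and heat shock lists lie below −1 in both.

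NRF2 targets did not move as a block. Of 31 tested, 18 were lower in tumors, 4 were higher and 9 were not called, against 29.0% lower and 31.2% higher over all rows, with a median of −0.46 (−0.37 in Experiment A and −0.55 in Experiment B). Over the same 31 rows, the median difference between tumors and cells was −0.59 in WT and −0.56 in DKO. A fall of this median was thus not particular to KEAP1-KO. The scaling matters here: after median centring 21 were lower and 3 higher, after scaling to totals 10 were lower and 7 higher, and the median ran from −0.74 to 0.01. Nqo1, the quinone reductase used as the standard readout of NRF2, was at 12.31, 12.54, 12.44 and 12.53 in cells, 12.25, 12.43, 12.44 and 12.51 in Experiment A and 11.93, 12.4, 12.37 and 12.23 in Experiment B. The groups overlapped, and the difference of −0.13 (SE 0.08) was not called (limma, adjusted p = 0.215). It was called lower after median centring (−0.42) and higher after scaling to totals (0.24). In WT, by contrast, Nqo1 went from 9.01 ± 0.11 in cells to 6.85 ± 0.19 in tumors, and the 2 differences were apart by 2.11 (SE 0.21, adjusted p = 2.0e-07) in the limma fit over all 28 libraries. Against DKO the gap of 0.62 (SE 0.21, adjusted p = 0.119) was not called in limma.

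The largest declines were in 2 glutathione transferases of the alpha class. Gsta1 was at 7.04, 6.87, 6.85 and 7.27 in cells, 6.07, 5.27, 3.87 and 6.01 in Experiment A and 4.0, 4.86, 3.92 and 4.39 in Experiment B, a difference of −2.21 (SE 0.35, limma, adjusted p = 1.9e-04). Gsta2 was at 6.2, 5.49, 6.26 and 6.39 in cells and 2.76 to 4.06 (median 3.37) in tumors, a difference of −2.66 (SE 0.27). These paralogs are close in sequence and can share reads. In WT and DKO libraries the Gsta2 row was at the floor in cells and tumors alike.

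Gclm, the regulatory subunit of the enzyme that limits glutathione synthesis, fell by 1.67 from 8.71, 9.27, 9.11 and 9.21 to 7.24 to 7.74 (median 7.31). Gclc, its catalytic subunit, differed by −0.56 (SE 0.08), a value near 0 after quantile normalization (0.01). Ugdh, which makes the sugar donor of glucuronidation, rose by 1.7 from 6.83, 6.65, 6.59 and 6.57 in cells to 8.07 to 8.77 (median 8.32) in tumors. The ferritin light chain gene Ftl1 differed by 1.26 (SE 0.41), a call lost without cell replicate 3 or 4 (1.25 and 0.76). The list's summed counts were 105599.9 to 118386.4 in cells, 71621.6 to 86572.4 in Experiment A and 58243.8 to 72341.7 in Experiment B.

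Among candidate genes that the study followed, Serpinb9e, a granzyme inhibitor family member, rose by 1.6 from 4.72, 4.42, 4.97 and 4.62 in cells to 7.44, 6.05, 5.13 and 7.55 in Experiment A and 5.78, 6.19, 6.13 and 6.0 in Experiment B. Slpi, a secreted protease inhibitor, was at 8.66, 8.91, 8.75 and 8.89 in cells, 10.64, 10.22, 9.3 and 10.64 in Experiment A and 8.46, 9.7, 9.43 and 9.46 in Experiment B. It was called higher (0.93, SE 0.26, limma, adjusted p = 0.00973), overlapped the cells and lost the call after median centring (0.64). Il7, the lymphocyte growth factor, was not called (0.28, SE 0.12, limma, adjusted p = 0.0685) but was after scaling to totals (0.64) and without tumor replicate 4 of Experiment A or 1 of Experiment B (0.33 each).

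Of 14 chemokine genes 10 were higher and 1 lower (median 1.58), against 31.2% higher and 29.0% lower over all rows. Of the 21 listed chemokine rows, 14 were under 5 normalized counts in every cell library. A higher call was close to fixed in advance for those of them that were tested, and 31.2% is no fair comparison for them. Ccl6 and Ccl8, myeloid attractants, rose most: Ccl6 was zero in cells and at least 105-fold higher, and Ccl8 differed by 4.46 (SE 0.24). Ccl2, the monocyte attractant, rose by 1.11 and its neighbor in the family Ccl7 fell by 0.45, a value of −0.08 after scaling to totals. Cxcl10, induced by interferon, was not called (−0.39, SE 0.28), and Cxcl9 reached 2.76 at most. Of 17 cytokines and growth factors 9 were higher and 2 lower. Angpt2, an endothelial angiopoietin, rose by 4.52, and Fgf2 fell by 1.56. The retained-intron row of Il1b, the inflammasome cytokine, was zero in the cells and at least 13.1-fold higher in the tumors.

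Of 11 complement genes 8 were higher and 1 was lower, against 31.2% higher and 29.0% lower over all rows. Of the 12 listed complement rows, 5 were under 5 normalized counts in every cell library, and 31.2% is no fair comparison for any of these that were tested. Among the higher ones were C3, the central component, with 2.52 (SE 0.16), and C5ar1, the receptor for the C5a anaphylatoxin, with 3.1 (SE 0.15). C1ra, a protease of the C1 complex, was the lower one at −0.64 (SE 0.22), a call that was lost after scaling to totals without the 20 highest rows (−0.31) and without cell replicate 1, 2 or 4 (−0.64 to −0.6). Of 13 immediate early genes 7 were higher and 2 lower: Fos and Btg2 rose by 2.06 and 2.55, and Ier2 and Ccn1 fell by 1.1 and 0.83. Jun was not called (−0.06, SE 0.05), and its sign changed with the scaling (0.32 after scaling to totals).

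Genes of MHC class I presentation were mixed, with 4 higher and 1 lower of 12, and 31.2% of all rows were higher. The list's median was 0.14, and its only gene row differed by −0.49. H2-K1 and H2-D1, class I heavy chains, rose by 4.29 and 1.34 (retained-intron rows), and B2m, their shared light chain, fell by 0.49 (0.13 and thus of the other sign after quantile normalization). Of 6 class II genes 4 were higher. Cd74, the invariant chain, was at 2.0, 2.0, 2.56 and 2.53 in cells, 5.92, 4.94, 6.55 and 5.89 in Experiment A and 6.96, 7.23, 7.14 and 7.51 in Experiment B. H2-Ab1, a class II chain, was zero in cells and at least 12.5-fold higher. H2-DMb1, a subunit of the peptide exchanger, fell by 0.76.

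Interferon response genes moved in both directions. Of 37 genes 28 were tested, 16 were higher, 3 lower and 9 not called, against 31.2% higher and 29.0% lower over all rows. The median was 1.02 (0.71 in Experiment A and 1.03 in Experiment B). Of the 37 listed rows, 18 were under 5 normalized counts in every cell library. A higher call was close to fixed in advance for those of them that were tested, and 31.2% is no fair comparison for them. Several of the higher ones started at or near the floor: Oas2, an antiviral synthetase, was zero in all cells and at least 6.93-fold higher, Rsad2, the antiviral enzyme viperin, rose by 2.1 and Irf7, the regulator of interferon genes, by 1.65. The 3 lower ones were read well in culture. Ifit2, an RNA-binding antiviral protein, was at 8.11, 8.4, 8.44 and 8.35 in cells, 6.17, 6.31, 6.88 and 5.99 in Experiment A and 7.11, 6.82, 6.56 and 6.66 in Experiment B, and Bst2, the virion tether tetherin, was at 8.04, 8.12, 7.91 and 8.24 in cells, 6.47, 6.29, 6.57 and 6.07 in Experiment A and 6.93, 6.72, 6.57 and 6.78 in Experiment B. Irgm1, an interferon-induced GTPase, fell by 0.68. The summed counts as deposited were 977.1 to 1043.2 in cells, 626.9 to 811.5 in Experiment A and 959.7 to 1083.3 in Experiment B. The sum over all rows was lower in tumors than in cells, so how these sums compare depends on the scaling. Over the 7 members with a mean of at least 25 normalized counts, the median was −0.04.

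The tumor against culture difference of these genes was then set against that in the other genotypes, each with its own cell and tumor libraries, in a limma fit over all 28. Over 16565 rows with a symbol, 377 had a larger difference in KEAP1-KO than in WT (2.28%) and 1194 a smaller one (7.21%), counted with sign. Against DKO in Experiment B, 464 were larger (2.80%) and 645 smaller (3.89%). The balance depended on the processing. Median centring gave 838 larger and 903 smaller against WT, and 712 larger and 550 smaller against DKO. Rows with a mean of at least 25 normalized counts gave 557 larger and 495 smaller against DKO. Of the 37 interferon genes, 34 had a smaller difference in KEAP1-KO than in WT and 30 a smaller one than in DKO, with none larger in either. Only 28 of the 37 passed the filter in the 12 KEAP1-KO libraries. The rest entered this fit through WT or DKO libraries. Where those were tumors, a smaller difference was close to fixed in advance. These rows enter the counts and the medians over all 37. The median difference between tumors and cells was 3.74 in WT and 3.69 in DKO, over the 28 genes tested in the KEAP1-KO libraries. Over all 37, the median of the differences between genotypes was −3.0 against WT and −2.37 against DKO. Both comparisons share the KEAP1-KO cell libraries, and the fit treats the 2 tumors of a mouse as independent, since the labels do not tie tumors to mice.

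Gbp7, a guanylate-binding protein induced by interferon, was at 6.5, 6.41, 6.36 and 6.32 in KEAP1-KO cells, 5.92, 5.98, 6.18 and 5.96 in tumors of Experiment A and 6.88, 6.76, 6.91 and 6.84 in those of Experiment B, and it was called lower in Experiment A (−0.39, SE 0.1, limma, adjusted p = 0.00543) and higher in Experiment B (0.45, SE 0.1, limma, adjusted p = 0.00214). The pooled difference of 0.03 (SE 0.08) averages these opposite calls (−0.26 after median centring), and it was the 1 symbol row called in opposite directions in the 2 experiments. In WT it went from 2.89 ± 0.51 in cells to 8.16 ± 0.58 in tumors (n = 4 each), and in DKO from 3.65 ± 0.19 to 8.25 ± 0.52. The mean of KEAP1-KO cells was thus above, and that of KEAP1-KO tumors below, the means of the other genotypes. The differences were apart by −5.65 (SE 0.35, adjusted p = 1.5e-10) against WT and −4.15 (SE 0.35, adjusted p = 5.5e-08) against DKO in limma.

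Gbp3, of the same family, showed −4.39 (SE 0.42, adjusted p = 1.2e-07) against WT and −3.93 (SE 0.42, adjusted p = 1.4e-06) against DKO in limma. Igtp, a GTPase of intracellular defense, showed −4.39 (SE 0.44, adjusted p = 2.3e-07) against WT, and Ifit1, which binds foreign RNA caps, −4.16 (SE 0.49, adjusted p = 5.4e-06) against DKO, both in limma. Ifit1 was at 2.07 ± 0.14 in KEAP1-KO cells and 2.75 ± 0.59 in their tumors of Experiment B, and at 2.0 ± 0.0 and 6.84 ± 0.75 in DKO cells and tumors.

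Promoter sequence shows what several of these genes share. The core of the interferon-stimulated response element, GAAANNGAAA, was searched on both strands in the 250 bases before the start of each gene (RefSeq, GRCm38.p6). Of the 37 genes 25 had a promoter entry, and 14 of these (56.0%) held a match, against 936 of 27025 genes (3.46%) and 978 of 32851 windows (2.98%). The list was made up of interferon response genes, so this share describes the list and is not a result of these libraries. The following stretches belong to the genes with the largest differences between genotypes and to Bst2, which fell in KEAP1-KO tumors, and the capitals mark the match. Capitals that begin with T are matches on the other strand, and a gene can hold overlapping matches, as Gbp3 and Bst2 do.
Gbp7 (chr3:142530275-142530300, plus strand): gtgtgcagTTTCAGTTTCagttctcc
Gbp3 (chr3:142559991-142560016, plus strand): ggacacagTTTCAGTTTCtatttccc
Igtp (chr11:58199514-58199539, plus strand): taggaactGAAACTGAAAgctgttcg
Ifit1 (chr19:34640796-34640821, plus strand): agtctcagTTTCAGTTTCtcactgct
Bst2 (chr8:71537579-71537604, minus strand): aggaaaatGAAACTGAAAggctgcag
The stretch shown was chosen for each gene after all its matches were seen, and these 5 hold the same 10 bases or their reverse complement. The other matches of Gbp3, Ifit1 and Bst2, and the match of Rsad2, differ from them at the open positions. A match describes the sequence and is not evidence of binding.

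**Figure D5:**
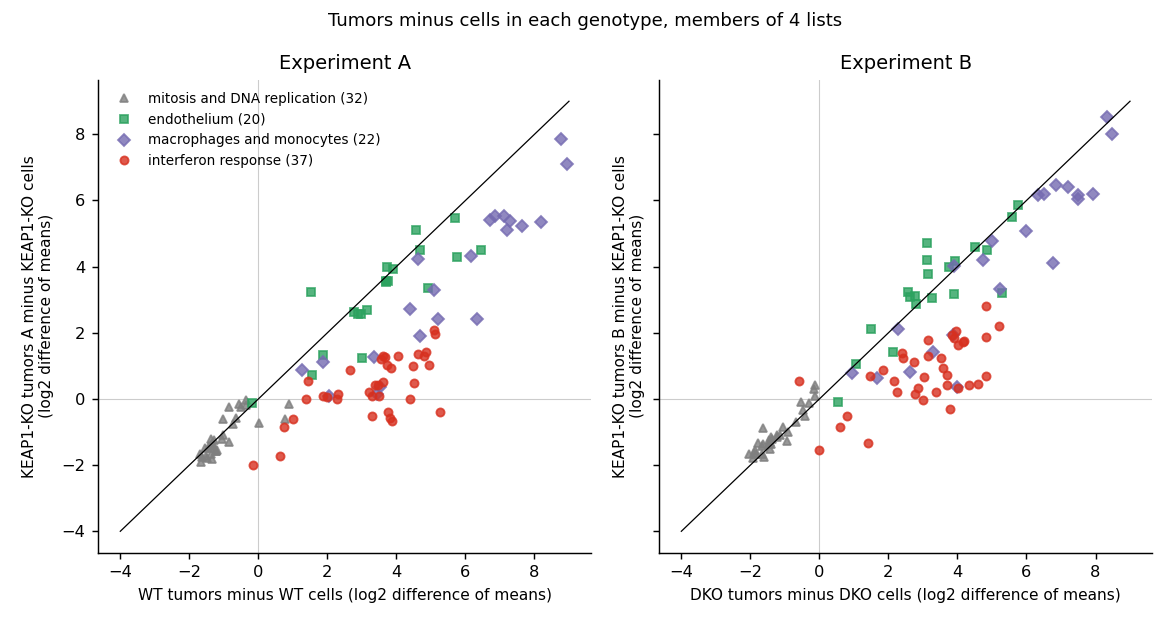
Log2 difference between tumors and cells of each list member in WT or DKO (x axis) against that in KEAP1-KO of the same experiment (y axis), for mitosis, endothelium, macrophage and interferon genes, with the line of equality and 1 point per gene. Interferon genes lie below the line except Irf1 in Experiment B, macrophage genes lie below it in Experiment A, and mitosis genes lie close to it in both.

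Host cell lists did not all share that pattern. All 12 leukocyte genes and 18 of 22 macrophage genes had a smaller difference in KEAP1-KO than in WT (medians −2.3 and −1.89), and 7 and 10 had a smaller one than in DKO (medians −1.0 and −0.87). Leukocyte sums were 4217.9 to 5040.1 in WT tumors and 2834.5 to 4338.5 in DKO tumors, against at most 2029.8 in KEAP1-KO tumors. These sums move with the interferon result, and their part in it was not tested. All 7 tested class II genes were smaller than in WT and 5 smaller than in DKO. In the KEAP1-KO libraries alone, 20 macrophage and 6 class II genes had passed the filter, so the limit given for the interferon genes applies to the rest. Of 19 endothelial genes 4 were smaller and 1 larger against WT, and 1 smaller and 2 larger against DKO. None of the 32 mitosis genes differed between genotypes at the threshold in limma, with medians of −0.06 and 0.16. A p that misses the threshold does not show that the differences were equal.

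The ATF4 list differed from DKO. Its median difference between tumors and cells was −1.66 in WT and −2.49 in DKO, over the 16 members tested in the KEAP1-KO libraries. In the fit over all 28 libraries, 15 of 18 had a less negative difference in KEAP1-KO than in DKO (median 0.98). Relative to WT it was 6 of 18 (median 0.37). The largest of these gaps against DKO were 1.97 in Trib3 and 1.96 in Chac1. As deposited, the list's summed counts were 52639.3 to 55333.8 in DKO cells and 31097.2 to 33986.1 in KEAP1-KO cells. They were 8792.3 to 11160.5 in DKO tumors and 11240.2 to 13215.7 in KEAP1-KO tumors of Experiment B. The gap against DKO thus includes a difference between the cultured cells. Of 31 NRF2 targets 9 had a larger and 4 a smaller difference than in WT, and 7 a larger and 3 a smaller one than in DKO.

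The genes with the largest gaps on the high side against WT were Aqp1, Sprr1a and Pls1. Aqp1, a water channel, rose in KEAP1-KO from 6.28 ± 0.13 in cells to 8.7 ± 0.21 in tumors of Experiment A (mean ± SD, n = 4), while WT went from 8.93 ± 0.1 to 8.49 ± 0.18. The gap was 2.85 (SE 0.23, adjusted p = 1.4e-08) in limma. Against DKO the gap had the other sign, −2.03 (SE 0.23, adjusted p = 4.3e-06), with DKO cells at 4.03 ± 0.5. Sprr1a, a cornified envelope protein, went from 3.94 ± 0.3 to 6.77 ± 0.67 in KEAP1-KO and from 3.65 ± 0.49 to 3.7 ± 0.44 in WT. Pls1, the actin bundler plastin 1, went from 3.48 ± 0.26 to 6.49 ± 0.28 in KEAP1-KO and from 6.57 ± 0.14 to 7.21 ± 0.3 in WT.

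Against DKO they were Grem1, Mfap3l and Rgs16. Grem1, a secreted antagonist of bone morphogenetic proteins, went from 8.71 ± 0.1 to 11.12 ± 0.25 in KEAP1-KO and from 11.93 ± 0.02 to 11.04 ± 0.3 in DKO, a gap of 3.3 (SE 0.26, adjusted p = 2.8e-08) in limma. The mean of the tumors differed by less than their SD between the genotypes, and that of the cultured cells did not. Rgs16, which shuts off G-protein signals, went from 4.68 ± 0.09 to 7.8 ± 0.29 in KEAP1-KO and from 7.89 ± 0.25 to 8.76 ± 0.25 in DKO. Mfap3l, a membrane protein, went from 8.97 ± 0.07 to 10.95 ± 0.22 in KEAP1-KO and from 6.02 ± 0.12 to 5.08 ± 0.31 in DKO, where it stood lower in both.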

How the data were processed

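RNA was rRNA-depleted and sequenced as strand-specific libraries, and the authors quantified reads with Salmon on the mouse transcripts of GENCODE, with differential expression run on iDEP. The log2 values the authors deposited are log2(normalized count + 4), a unit read from the values themselves, although the study's methods speak of TPM, and how these counts were normalized is not given in the sources used here. Reads per library, summed over the deposited rows only, were recovered from the steps between low values.

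Groups came from sample titles. Rows that reached 5 normalized counts in 4 or more of the fitted libraries entered limma 3.58.1 (R 4.3.3, eBayes with trend), with 1 mean per group, over the 12 libraries or, for the genotype comparisons, over all 28. P-values were adjusted by Benjamini-Hochberg over all rows fitted, and called means an adjusted p under 0.05. Scripts ran in Python 3.11.15 and were tested on simulated data. A gene with no reads in any cell library is given as a lower bound against 3 reads per library (2.73 normalized counts).

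The genes, lists and tests were chosen with earlier results of these data known. Named genes are the 10 highest and 10 lowest protein-coding gene rows without overlap (mean log2 of at least 6 in the higher group), the 3 highest and 3 lowest for each genotype comparison, and, in each list, the first 3 members and the 2 at either end, and Keap1, Nfe2l2, Nqo1, Il7, Slpi, Serpinb9e and Ptprc. Members named outside this rule (such as Irgm1, Fasn, Scd2, Srebf1, Acly and Irf1) were chosen after their values were seen. Alternatives changed the pseudocount, filter, scaling, variance model, threshold and libraries. Results for some members of the lists are not reported here.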

Additional observations from a re-analysis of the deposited data

Results flagged for a closer look

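In 189 groups of 4 libraries, 11 had a library whose gap to the next exceeded Dixon's 95% limit relative to the group's range, where chance gives about 1 in 20. Among the cells, replicate 1 stood apart with the sterol list at a summed 4847.6 normalized counts (others 5082.6 to 5114.9) and the matrix list at 6096.8 (others 6614.8 to 6716.6). It was also flagged for Hbb-bs at 2.30 (the others at 2.0). That value lies under 3 reads and cannot be told from zero, and with the others equal the ratio is 1.0 by construction. In Experiment A, replicate 3 stood apart with Dnph1 at 6.75 (others 5.58 to 5.76), the hypoxia list at 21939.4 (others 26483.3 to 27102.8) and complement at 596.1 (others 410.8 to 440.2). It also had the lowest weight of the 12 libraries in limma (0.63). Replicate 1 of Experiment A was highest in the B cell sum at 159.0 (others 133.0 to 134.3), and replicate 4 lowest in MHC class I at 5196.8 (others 5545.3 to 5611.5). In Experiment B, Keap1 was at 7.30 in replicate 3 (others 7.5 to 7.52), the pericyte sum at 1096.3 in replicate 1 (others 848.1 to 870.2) and the skeletal muscle sum at 297.2 in replicate 4 (others 80.8 to 103.5).

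The difference between tumors and cells itself differed between KEAP1-KO and another genotype in some named genes (limma, interaction of genotype and growth site). Of 208 tested, 13 had a larger and 68 a smaller difference than in WT, and 14 a larger and 50 a smaller one than in DKO. Over all rows with a symbol the shares were 2.28% and 7.21% against WT, and 2.80% and 3.89% against DKO. The named set includes the 3 genes at each end of each comparison, picked by this same test. Its counts therefore describe the set and support no result. Values follow for the 3 genes at each end of each comparison and for the others whose gap is described above. Against WT in Experiment A, Aqp1 (2.85, adjusted p = 1.4e-08 in limma), Sprr1a (2.79, 1.8e-04) Pls1 (2.36, 1.1e-05) and Nqo1 (2.11, 2.0e-07) were on the high side, and Gbp7 (−5.65, 1.5e-10), Igtp (−4.39, 2.3e-07) and Gbp3 (−4.39, 1.2e-07) on the low side. Against DKO in Experiment B, Grem1 (3.30, adjusted p = 2.8e-08 in limma), Mfap3l (2.92, 8.4e-07), Rgs16 (2.25, 4.1e-06), Trib3 (1.97, 4.8e-05) and Chac1 (1.96, 9.8e-04) were on the high side, and Ifit1 (−4.16, 5.4e-06), Gbp7 (−4.15, 5.5e-08), Gbp3 (−3.93, 1.4e-06) and Aqp1 (−2.03, 4.3e-06) on the low side.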

How the results depend on the processing

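Counts of higher and lower calls stayed within 1.5 times their value in 251 alternative fits and moved beyond it in 23. Requiring a mean of 25 normalized counts gave 2809 higher calls pooled, 2680 in Experiment A and 2637 in Experiment B, and 781 smaller differences against WT. Testing gene rows alone (added after seeing the data) gave 2533 higher and 1771 lower calls pooled, 2327 and 1705 in Experiment A, 2370 and 1586 in Experiment B, and 247 larger differences against DKO. Requiring 2-fold gave 2240 and 1964 pooled, 2195 and 2102 in Experiment A, 2213 and 1815 in Experiment B, and 147 larger differences against WT and 112 against DKO. Median centring gave 838 larger differences against WT (903 smaller) and 712 against DKO (550 smaller), so the balance against DKO reversed. For larger differences against DKO, a fit without trend gave 256 and totals over all rows (added after seeing the data) 298. With 1 library left out, pooled calls ranged from 4166 to 4456 higher and 3873 to 4269 lower. Requirements on size or rows reduce the counts by construction, and for the others the cause was not tested.

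Replicate numbers were shared by the groups, but same-numbered libraries did not deviate together (correlations of −0.034 to 0.038, including the pairs of genotypes grown in the same mice), so they were not treated as pairs. A replicate block gave 4418 higher and 4185 lower calls pooled, 369 and 1203 against WT, and 457 and 623 against DKO.

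Of 215 named gene results, 24 changed sign in some fit, 9 of them with a call in that fit or as reported. Quantile normalization gave Nqo1 0.41, Krt8 0.12, Gclc 0.01, B2m 0.13, Jun 0.55 and Cdkn1a 0.17. Totals without the 20 highest rows gave Nqo1 0.24, Pax5 0.14, Jun 0.32, Cdkn1a 0.01 and mt-Co1 0.30, and totals over all rows gave 0.23 for Nqo1, 0.13 for Pax5, 0.31 for Jun and 0.29 for mt-Co1. Median centring gave Gbp7 −0.26. At this depth a row under 3 reads cannot be told from zero, and rows of single transcripts do not give the level of a gene.

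The medians of 33 of 35 lists moved by more than the SD between tumors in some fit, most often with a mean of 25 normalized counts required (19 lists). Those of 7 lists changed sign: gene rows alone gave −0.22 for B cells, −0.49 for MHC class I, 1.0 for heat shock and −0.38 for skeletal muscle, and the others were interferon (−0.04), NRF2 targets (0.01) and keratinocytes (−0.15).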
